A study of Mus musculus with 24 samples.

Results

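The genes described here are 9 that mark megakaryocytes and platelets: Pf4, Ppbp, Gp1ba, Gp1bb, Gp9, Gp5, Gp6, Itga2b and Itgb3. They were taken by gene name from the scanner files, where all 9 were found among 37008 distinct names, on 12 of 56605 probes. The mice were male Erfe-/- animals bled by retro-orbital puncture, RNA came from their liver and their bone marrow, and 24 samples were hybridised, 1 to each single-colour Agilent array. The 6 groups are marrow at 0, 24 and 48 h after the bleed and liver at the same times, with 4 samples in each group. The 0 h mice are labelled as controls. Erfe encodes erythroferrone, a hormone that erythroblasts release after blood loss and that lowers hepcidin in the liver. The 0 h mice lack Erfe as well, and no mice with intact Erfe are among the samples, so a change shown here is a change after bleeding in mice without erythroferrone.

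Megakaryocytes are the large marrow cells that shed platelets, and platelets carry megakaryocyte mRNA into the blood with no nucleus to renew it. The 9 genes cover what a platelet releases and the receptors by which it sticks and clots. Pf4 and Ppbp are chemokines stored in alpha granules; Gp1ba, Gp1bb, Gp9 and Gp5 form the receptor for von Willebrand factor; Gp6 is the collagen receptor; and Itga2b and Itgb3 pair as the fibrinogen receptor. In marrow such mRNA can come from megakaryocytes and from platelets. In adult liver it can come from platelets in the blood left in the organ, and other liver cells may add to it. Itgb3 also pairs with another alpha chain in endothelial cells, macrophages and osteoclasts. Which cells gave the liver readings was not tested.

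A level is the log2 of a gene's signal over its array's 75th percentile, so 0 is that percentile and 1 unit is a doubling. In intensity units the percentile was 693.8 to 941.8 on marrow arrays and 354.1 to 466.7 on liver arrays. From 32009 to 35700 probes were well above background on a marrow array and from 28013 to 34428 on a liver array. All 12 hepatocyte markers were above background on every liver array. On 11 marrow arrays their median signal was 0.00292% to 0.0374% of the liver mean, and on the library labelled marrow 24 h replicate 2 it was 17.4%. That library was also the only one of the 24 with a probe for Erfe above background: 1 of the 2 Erfe probes stood there at -2.60. Whether the Erfe probes lie within the deleted stretch was not analysed here, so the counts of calls, the members' changes and the lists are also given without this library. In whole tissue, fewer cells of a type and less RNA in each cell cannot be told apart.

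All 9 genes were far higher in marrow than in liver before the bleed. At 0 h limma on the 24 arrays called 9 of 9 members higher in marrow at an adjusted p of at most 0.05, while it called 39.5% of 22768 genes higher in marrow and 80.3% in either direction. The log2 difference of marrow minus liver was 7.03 for Pf4, 9.37 for Ppbp and 8.81 for Gp9, with standard errors of 0.20, 0.41 and 0.34. Ppbp was above background on 3 of the 4 liver arrays at 0 h and Gp9 on 2, so the size of their differences rests in part on readings at background. For Itgb3 it was 4.63 with a standard error of 0.20, the smallest of the 9, and for Gp6 it was 5.15 with a standard error of 0.19. Gp1ba and Gp5 were not well above background on any liver array, so their differences are bounds: marrow was at least 89.1-fold higher for Gp1ba and at least 35.5-fold higher for Gp5 at 0 h. Each bound sets the marrow mean against the dimmest signal counted as well above background on each liver array, or the probe's reading where that was higher. Gp1bb and Itga2b were above background on 1 of 4 liver arrays at 0 h and on 2 of 4 at 24 h and at 48 h. Marrow and liver arrays took different positions on the slides, so tissue and position on the slide cannot be told apart.

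In marrow none of the 9 genes changed after the bleed by the test. Limma called 0 of 9 members at 24 h against 0 h, where it called 214 genes or 1.0% of 21381 tested. It called 0 of 9 at 48 h against 0 h, where it called 227 genes or 1.06%, and 0 of 9 at 48 h against 24 h, where it called 1 gene or 0.00468%. At an unadjusted p under 0.05 the count of members was also 0 in all 3 comparisons, beside 12.7%, 15.8% and 7.68% of all genes. On the brightest probe of each gene, which stands for it here, in none of the 3 comparisons were the 4 later arrays of a member all above or all below the 4 earlier ones, which held for 8.09%, 12.4% and 3.77% of all genes. The 95% intervals of the 9 changes reached from 0.655-fold to 1.40-fold at 24 h and from 0.790-fold to 1.69-fold at 48 h, and larger shifts lie outside them.

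Pf4, platelet factor 4, had nearly the same marrow mean at all times, 7.07 ± 0.20 (SD, n = 4) at 0 h, 7.09 ± 0.14 at 24 h and 7.11 ± 0.34 at 48 h. Its probe lies at chr5:91202275-91202334 in the mm9 build, on the plus strand, and the probe for its neighbour Ppbp lies at chr5:91198970-91199029 on the same strand. Which part of the transcript these probes match was not analysed here. In marrow Pf4 stood at 7.10, 6.83, 7.02 and 7.31 on the 4 arrays at 0 h, at 6.99, 6.96, 7.25 and 7.16 at 24 h, and at 6.74, 7.57, 7.09 and 7.03 at 48 h. The groups overlapped, and both the highest and the lowest of the 12 readings fell at 48 h. The change was 0.02 at 24 h and 0.04 at 48 h, each with a standard error of 0.16 (limma adjusted p = 0.971 and 0.932). Ppbp, whose product gives rise to chemokines that draw neutrophils, had means of 6.13 ± 0.17 (SD, n = 4) at 0 h, 6.05 ± 0.16 at 24 h and 6.17 ± 0.38 at 48 h. Its changes of -0.08 and 0.04, with a standard error of 0.17, had limma adjusted p = 0.887 and 0.939.

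No gene of the von Willebrand factor receptor passed the test in marrow. Gp1ba, the chain that binds von Willebrand factor, had a mean of 2.01 ± 0.33 (SD, n = 4) at 0 h, 2.08 ± 0.20 at 24 h and 2.24 ± 0.32 at 48 h. Gp1bb, the chain linked to it by a disulfide bond, had 0.37 ± 0.14, 0.32 ± 0.31 and 0.63 ± 0.29. On its 12 arrays Gp1bb read 0.41, 0.26, 0.26 and 0.55 at 0 h, 0.12, 0.02, 0.68 and 0.48 at 24 h, and 0.38, 1.04, 0.58 and 0.50 at 48 h. Only replicate 2 at 48 h lay above the highest 24 h reading, so the groups overlapped. Gp9, which the complex needs to reach the surface, ranged from 4.02 to 4.27, from 3.78 to 4.19 and from 3.88 to 4.57. Gp5, the thrombin-cleaved chain of the complex, ranged from 0.32 to 0.94, from 0.25 to 0.96 and from 0.67 to 1.38. The changes at 48 h were 0.24 for Gp1ba, 0.26 for Gp1bb, 0.10 for Gp9 and 0.25 for Gp5, with standard errors of 0.15 to 0.22 over the 9 genes, and Gp1bb had the lowest limma adjusted p of the 9 at 0.489. A second, dimmer Gp1bb probe, between -5.08 and -3.26 in marrow, gave -0.12 at 24 h and 0.63 at 48 h (limma adjusted p = 0.894 and 0.296).

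The collagen receptor Gp6 and the fibrinogen receptor gave no call in marrow either. Gp6 had means of 1.34 ± 0.12 (SD, n = 4) at 0 h, 1.31 ± 0.14 at 24 h and 1.40 ± 0.41 at 48 h. Its changes against 0 h were -0.03 and 0.06 (limma adjusted p = 0.962 and 0.894). Itga2b, the alpha chain that marks the megakaryocyte lineage early, read 0.34, 0.58, 0.19 and 0.82 at 0 h, -0.13, 0.03, 0.87 and 0.65 at 24 h, and 0.73, 1.04, 0.62 and 0.66 at 48 h. At 24 h 2 of its arrays lay below all 0 h arrays and 1 lay above them, so that group had the widest spread. Its change of 0.28 at 48 h had a standard error of 0.22 (limma adjusted p = 0.571), and its change of 0.40 from 24 h to 48 h was the largest of the 9 in that comparison (limma adjusted p = 0.684). The Itga2b probe covers 60 bases of transcript over 209 bases of genome, at chr11:102319453-102319661 on the minus strand in mm9, so it crosses a gap in the genome. It is shown because this span sets it apart from the other 11 probes, each of which lies in 1 block:
Itga2b probe: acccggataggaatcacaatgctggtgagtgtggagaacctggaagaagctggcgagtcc

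Itgb3, the beta chain shared with other cell types, had marrow means of 4.22 ± 0.20 (SD, n = 4), 4.30 ± 0.24 and 4.46 ± 0.34 at 0, 24 and 48 h. Its change at 48 h was 0.24 with a standard error of 0.18 (limma adjusted p = 0.538). A second, dimmer Itgb3 probe gave 0.41 at 24 h and 0.27 at 48 h, against 0.09 and 0.24 for the brighter probe. On the dimmer one the 24 h arrays, at -1.01, -0.98, -0.69 and -0.76, all lay above the 0 h arrays, at -1.20, -1.14, -1.43 and -1.29, so the 2 probes disagree on whether the groups overlap (limma adjusted p = 0.36 over every probe kept). Both were above background on all marrow arrays. A second Gp6 probe gave -0.13 and 0.05.

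**Figure D1:**
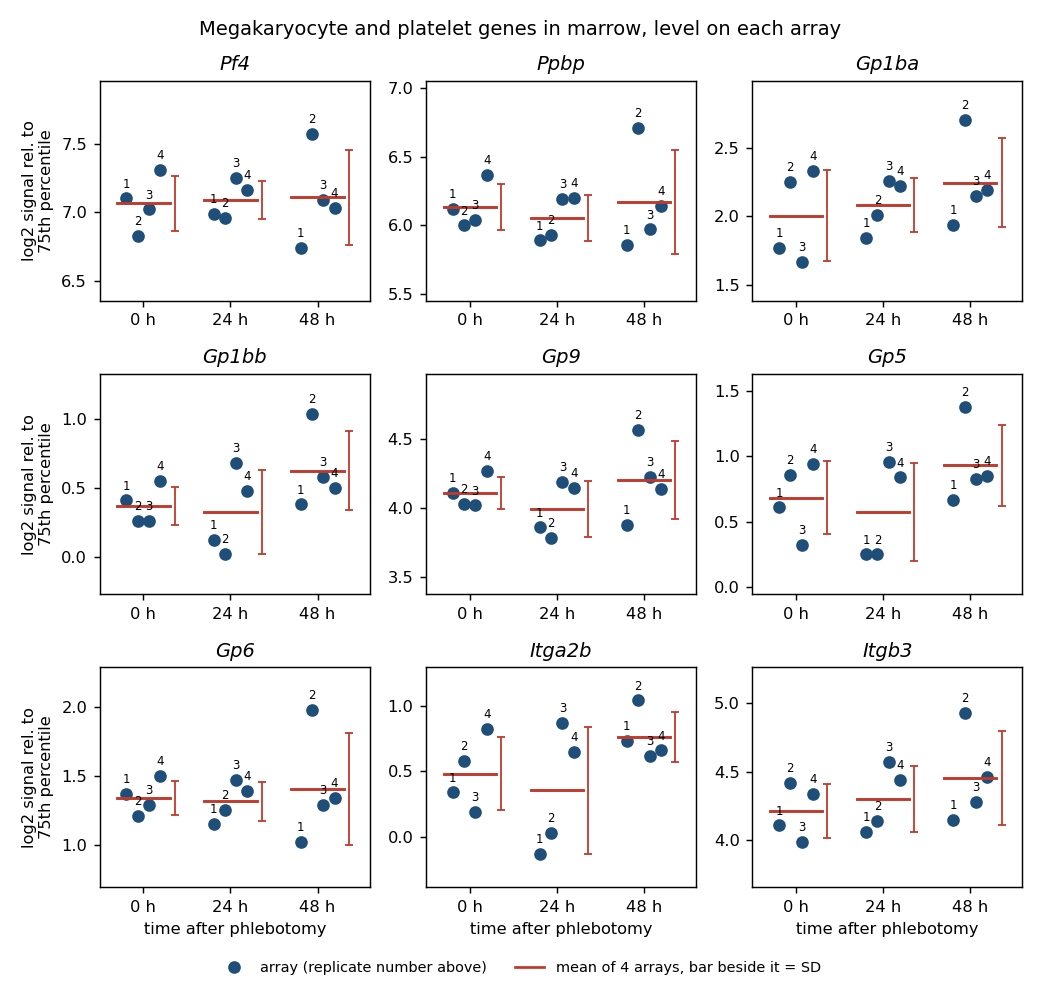
Level of each of the 9 genes on the 12 marrow arrays, as log2 signal relative to the array's 75th percentile, against time after phlebotomy in hours. Points are arrays with their replicate number, red lines are means of 4 arrays and the bars beside them are SDs; all 9 panels span at least 1.6 log2 units. In every panel the 3 times overlap, and replicate 2 at 48 h is the highest point.

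All 9 means were above 0 h at 48 h, with a median change of 0.24, while the median over all genes was -0.00 and 49.4% of genes lay above 0. Much of this came with a single library. Marrow 48 h replicate 2 held the highest of the 12 marrow readings for 9 of 9 members, and for 15.9% of all genes. Without it the median change of the 9 at 48 h was 0.08 and 5 of 9 lay above 0, from -0.14 to 0.19. Across slides the 9 differences at 48 h had a median of -0.11 on slide 1, 0.56 on slide 2 and -0.15 on slide 3, and with the slide as a block 6 of 9 lay above 0 with a median of 0.20. At 24 h 3 of 9 means were above 0 h, with a median change of -0.04 beside -0.03 over all genes. Without the library labelled marrow 24 h replicate 2 the count was 5 of 9, the range -0.04 to 0.14, and again no member was called, while the count of all genes called at 24 h was 124 in place of 214. From 24 h to 48 h 9 of 9 means were higher with that library and 8 of 9 without it, with median changes of 0.16 and 0.14 and no member called.

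Across the 12 marrow arrays the 9 genes varied together. Pearson's r over the 36 pairs ran from 0.502 to 0.970 with a median of 0.798, and Spearman's rho from 0.538 to 0.965. Of the 46 pairs tested in both tissues, 34 of these 36 passed an adjusted permutation p of 0.05 by Pearson's r and 33 by Spearman's rho. With the time means removed r ran from 0.552 to 0.973, and without the 2 arrays farthest from the median it ran from 0.316 to 0.948. Without the library labelled marrow 24 h replicate 2 the lowest r over 11 arrays was 0.477 and the median 0.818. The 12 arrays share the 75th percentile scaling and 3 slides, and each slide held 4 marrow arrays, too few for a value within a slide. Of 21031 genes compared, the 5 most like Pf4 in marrow by Pearson's r over the 12 arrays were P2ry1 at 0.957, Cysltr2 at 0.951, Gp6 at 0.949, Ptpn11 at 0.931 and Plek at 0.926. P2ry1 is the platelet ADP receptor that starts shape change, and Plek encodes pleckstrin, the main protein kinase C substrate of platelets. Ppbp ranked 6 at 0.920 and Gp9 16 at 0.862, while Itga2b ranked 1534 at 0.502.

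Because the 9 genes varied together in marrow, the stretches around their transcription starts were searched for letters read by transcription factors. The GATA and ETS families, whose letters were used, drive megakaryocyte genes. RefSeq promoters of the GRCm38.p6 build, 300 bases each, were matched for 8 of the 9 genes. Each runs from 250 bases before the annotated start to past it, so the counts include matches after the start. The 1 GATAA match of Pf4 lies 37 bases after the start, and the 1 GGAAG match of Gp6 lies 17 bases after it. GATAA, searched on both strands, was found in 5 of 8, those of Pf4, Gp9, Gp1ba, Gp5 and Gp6, and in 25.4% of 32851 promoters of that length. GGAAG, the ETS letters, was found in 8 of 8 and in 71.4% of all promoters, and both were found in 5 of 8 and in 17.2%. TATAAA was found in 1 of 8, that of Ppbp, 30 and 8 bases before the start, and in 13.6% of all. These are letter matches only. The 4 genes whose GATAA match lies before the start are shown with 250 bases up to the start, read along the gene, and capitals mark GATAA or its reverse complement TTATC:
Gp1ba (chr11:70638872-70639121, plus strand): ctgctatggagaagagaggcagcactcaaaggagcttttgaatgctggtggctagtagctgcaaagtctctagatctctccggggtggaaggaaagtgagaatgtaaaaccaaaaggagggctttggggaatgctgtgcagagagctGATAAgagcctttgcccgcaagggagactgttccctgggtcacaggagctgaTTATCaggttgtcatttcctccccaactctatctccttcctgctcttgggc
Gp9 (chr6:87777820-87778069, plus strand): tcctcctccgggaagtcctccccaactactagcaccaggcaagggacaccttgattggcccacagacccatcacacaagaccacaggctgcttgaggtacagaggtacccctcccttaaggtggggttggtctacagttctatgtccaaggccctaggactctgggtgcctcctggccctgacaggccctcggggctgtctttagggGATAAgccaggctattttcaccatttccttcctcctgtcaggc
Gp5 (chr16:30310782-30311031, minus strand): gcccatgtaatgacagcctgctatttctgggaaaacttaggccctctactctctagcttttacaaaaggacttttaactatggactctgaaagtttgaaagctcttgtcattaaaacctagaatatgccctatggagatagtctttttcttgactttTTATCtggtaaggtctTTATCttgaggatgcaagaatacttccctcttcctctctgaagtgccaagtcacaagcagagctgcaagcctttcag
Gp6 (chr7:4397745-4397994, minus strand): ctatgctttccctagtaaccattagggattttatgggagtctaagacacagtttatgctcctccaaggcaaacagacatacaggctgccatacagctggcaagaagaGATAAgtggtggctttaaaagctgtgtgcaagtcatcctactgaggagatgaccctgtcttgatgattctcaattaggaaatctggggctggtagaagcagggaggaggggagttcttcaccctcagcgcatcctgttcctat
The first base of the match lies 103 and 51 bases before the start in Gp1ba, 43 in Gp9, 93 and 77 in Gp5, and 143 in Gp6.

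Around these 9 genes, the lists of platelet and regulator genes gave 1 call in marrow. Of 10 transcription factors of the megakaryocyte lineage, 0 were called at 24 h and 1 rose at 48 h, beside 1.0% and 1.06% of all genes called. At an unadjusted limma p under 0.05, in either direction, the count was 3 of 10 at 24 h and 6 of 10 at 48 h. Of all genes 12.7% and 15.8% passed that limit. That gene was Tal1, a factor of erythroid cells and megakaryocytes, which went from 4.05 ± 0.13 (SD, n = 4) to 4.67 ± 0.16, a change of 0.62 with a standard error of 0.11 (limma adjusted p = 0.0240). Its 48 h arrays, from 4.50 to 4.85, lay above the 0 h arrays, from 3.93 to 4.23. The median of the 10 was 0.03 at 24 h and 0.18 at 48 h, beside -0.03 and -0.00 over all genes. Of the 10 changes, 5 lay above 0 at 24 h and 6 at 48 h. Zfpm1, the GATA1 partner known as FOG1, had the highest mean of that list and stood at 5.05 ± 0.17, 5.50 ± 0.13 and 5.54 ± 0.13 at 0, 24 and 48 h (limma adjusted p = 0.0846 and 0.0587). Nfe2, which drives late steps of platelet formation, stood at 4.64, 4.73 and 4.94 (limma adjusted p = 0.719 and 0.124). Tal1, Zfpm1 and Nfe2 also serve erythroid cells, and in the red cell and erythroblast list 1 gene of 13 was called: Tfrc, the transferrin receptor, rose by 0.79 at 24 h and 1.02 at 48 h (limma adjusted p = 0.0154 and 0.00376). Of these 13 genes, 6 lay above 0 at 24 h with a median of -0.09, and 12 at 48 h with a median of 0.18. The part of erythroid cells in the change of Tal1 was not tested.

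The rest of the platelet genes gave no call in marrow. Among 25 platelet receptors and signalling genes on the arrays 0 were called at 24 h and at 48 h, with median changes of -0.07 and 0.03. Fcer1g, the signalling partner of Gp6, stood at 6.10 ± 0.12 (SD, n = 4), 5.91 ± 0.26 and 5.87 ± 0.22 at 0, 24 and 48 h, and Plek at 4.61 ± 0.16, 4.58 ± 0.18 and 4.58 ± 0.25. Of 17 granule and secretion genes 16 were tested and 0 called, with medians of -0.08 and -0.11; Sparc stood at 8.71, 8.45 and 8.32 and Srgn, the granule proteoglycan serglycin, at 5.77, 5.67 and 5.56. Of 10 cytoskeleton and release genes 0 were called, with medians of -0.05 and 0.09; Myh9, the myosin of platelet release, stood at 6.22, 6.07 and 6.03 and Flna, filamin A, at 6.21, 6.11 and 5.98. Of the thrombopoietin axis, 5 of the 6 genes on the arrays were tested and 0 called, with medians of -0.11 and -0.09. Sh2b3, a brake on the thrombopoietin receptor, stood at 2.41, 2.22 and 2.20 and the kinase Jak2 at 1.13, 0.93 and 1.14. No gene was called among 10 neutrophil markers or 7 stem and progenitor genes tested, while 2 of 6 mast cell and basophil genes fell at 48 h: Mcpt8 by 0.97 and Ms4a2 by 0.59 on the log2 scale (limma adjusted p = 0.00453 and 0.0189). Without the library labelled marrow 24 h replicate 2 the medians at 24 h were 0.06 for the transcription factors, 0.02 for receptors and signalling, -0.01 for granule genes, -0.02 for cytoskeleton genes and -0.13 for the thrombopoietin axis. The calls of Tal1, Tfrc, Mcpt8 and Ms4a2 remained without it, and Cpa3, a mast cell protease, was called as well at 48 h.

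In liver the signal of these genes was a small fraction of that in marrow, and it was uneven among them. The liver mean of Pf4 was 0.766% of its marrow mean at 0 h, 1.19% at 24 h and 1.02% at 48 h. For Ppbp the shares were 0.151%, 0.303% and 0.253%, for Gp9 they were 0.222%, 0.476% and 0.675%, and for Itgb3 they were 4.04%, 6.23% and 4.75%. For Gp6 they were 2.81%, 2.85% and 2.88%. Of the 9 genes, 5 passed the filter for dim probes, which asked that every array of some liver group read above background, and Gp1ba, Gp1bb, Gp5 and Itga2b did not.

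No member was called in liver between times. Limma called 0 of 5 tested at 24 h against 0 h, at 48 h against 0 h and at 48 h against 24 h, and of all 19638 genes tested in liver it called 0, or 0.0%, in each, with smallest adjusted p of 0.30, 0.265 and 0.212. At an unadjusted p under 0.05 the count of members was 3 of 5 at 24 h, 2 of 5 at 48 h and 0 of 5 between 24 and 48 h, against 11.2%, 6.55% and 7.67% of all genes. The 4 later arrays stood above all 4 of the 0 h arrays for 2 of 5 members at 24 h and for 3 of 5 at 48 h, which held for 2.10% and 1.67% of all genes. These 5 are the members that passed the filter and not all 9. Ppbp and Gp9 passed it only through the 24 h and 48 h groups, where they were brighter, and Gp6 only through the 24 h group, so the counts are a description and support nothing.

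Pf4 and Itgb3 were the 2 members above background on all 12 liver arrays. Pf4 read 0.33, -0.60, 0.22 and 0.20 at 0 h, 1.08, 0.92, 0.41 and 0.36 at 24 h, and 0.40, 0.40, 0.69 and 0.49 at 48 h. Each later array lay above each 0 h array, by 0.36 against 0.33 at the closest. The change was 0.65 at 24 h, or 1.57-fold, with a standard error of 0.22 (limma unadjusted p = 0.0114, adjusted p = 0.348), and 0.46 at 48 h (adjusted p = 0.770). Replicate 2 at 0 h lay apart from its group, and without it the changes were 0.44 and 0.24 (limma adjusted p = 0.512 and 0.939).

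Itgb3 followed Pf4 from array to array. It read -0.15, -0.86, -0.26 and -0.39 at 0 h, 0.75, 0.58, -0.01 and -0.12 at 24 h, and -0.09, -0.01, 0.14 and 0.20 at 48 h. Again each later array lay above each 0 h array, narrowly so for replicate 4 at 24 h. The change was 0.71 at 24 h with a standard error of 0.21 (limma unadjusted p = 0.00516, adjusted p = 0.331) and 0.48 at 48 h (adjusted p = 0.733). Its second probe was above background on 1 of 12 liver arrays and gives no liver course.

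Gp9 had the largest change of the 5 at 48 h, on a dim probe. It read -4.71, -6.12, -4.15 and -3.85 at 0 h, the first 2 of them not above background, then -3.45, -3.74, -3.71 and -3.99 at 24 h, and -3.58, -3.30, -2.75 and -2.40 at 48 h. The 48 h arrays all lay above the 0 h arrays, and the 24 h arrays overlapped with them. The change at 48 h was 1.70, set against 2 readings at background, so its size is not settled; it had a standard error of 0.43 (limma unadjusted p = 0.00206, adjusted p = 0.508), and that at 24 h was 0.98 (adjusted p = 0.427). With normexp background correction, which adds an offset and draws dim values together, the changes were 0.49 and 0.17, and in the authors' table they were 0.80 and 0.29. Without replicate 2 at 0 h the change at 24 h was 0.51.

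Ppbp and Gp6 overlapped between all times in liver. Ppbp read -3.16, -4.31, -3.84 and -1.65 at 0 h, the second not above background, then -1.57, -2.45, -2.30 and -2.93 at 24 h, and -3.03, -2.78, -1.68 and -2.34 at 48 h. Its 0 h group spanned more than either later group, and the changes of 0.93 and 0.78 had a standard error of 0.52 (limma adjusted p = 0.521 and 0.866). With normexp the change at 24 h was 0.36. Without replicate 2 at 0 h the changes were 0.57 and 0.43, and without replicate 4 at 0 h they were 1.46 and 1.31. Gp6 ranged from -3.95 to -3.56, from -4.28 to -3.30 and from -4.01 to -3.50, with changes of -0.01 and 0.09, and its second probe was above background on 0 of 12 liver arrays, so the 2 probes differ on whether Gp6 was measured in liver at all.

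**Figure D2:**
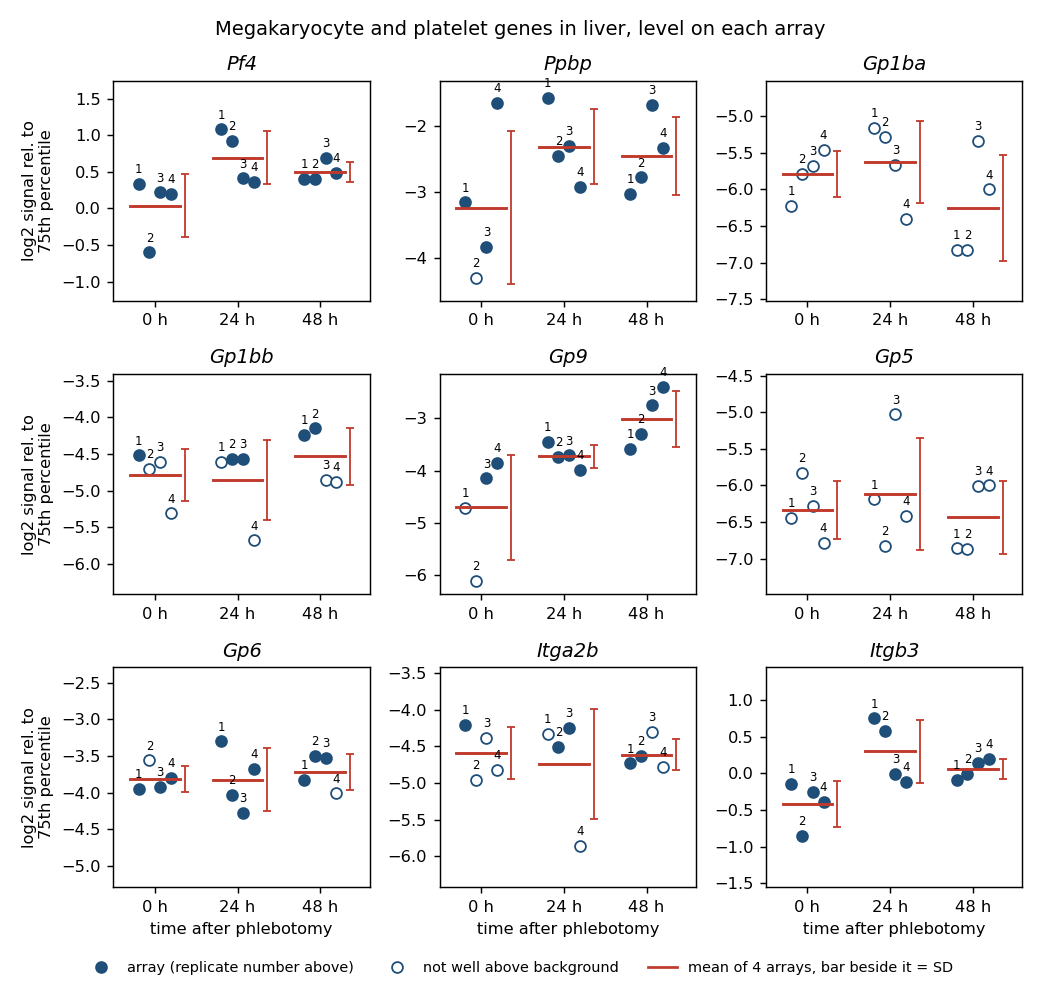
Level of each of the 9 genes on the 12 liver arrays, as log2 signal relative to the array's 75th percentile, against time after phlebotomy in hours; open points were not well above background. Red lines are means of 4 arrays, bars beside them are SDs, and all panels span at least 3.0 log2 units. Pf4 and Itgb3 are filled at every point and sit lowest at 0 h, while Gp1ba and Gp5 are open throughout.

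The 4 members that did not pass the filter had no measured course in liver. Gp1ba read between -6.83 and -5.16 and Gp5 between -6.87 and -5.03 over the 12 arrays, all at background. Gp1bb and Itga2b were each above background on 5 of the 12. At 24 h marrow was at least 119-fold above liver for Gp1ba and at least 40.3-fold for Gp5, and at 48 h at least 108-fold and 43.7-fold.

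Differences on single slides bear on the liver changes, since each of the 3 slides held arrays of all times. For Pf4 at 24 h the difference was 1.21 on slide 1, 0.71 on slide 2 and 0.18 on slide 3, and at 48 h it was 0.54, 0.33 and 0.28. For Itgb3 it was 1.26, 0.84 and 0.33 at 24 h and 0.41, 0.32 and 0.60 at 48 h. For Gp9 it was 1.96, 0.41 and -0.00205 at 24 h and 1.83, 1.12 and 1.45 at 48 h. For Ppbp it was 2.16, 1.39 and -0.97 at 24 h and 0.71, 1.61 and -0.69 at 48 h. The differences of Pf4 and Itgb3 were above 0 on all slides at both times, while Ppbp lay below 0 on slide 3. Each difference comes from 1 or 2 arrays a time on a slide. On slide 1 the 0 h value is the mean of replicates 1 and 2, and replicate 2 lay apart for Pf4. There Pf4 read 0.33 and -0.60 at 0 h and 0.40 at 48 h, while Itgb3 read -0.15 and -0.86 at 0 h and -0.09 at 48 h. With the slide as a block the changes at 24 h were 0.68 for Pf4 and 0.76 for Itgb3 (limma adjusted p = 0.251 and 0.210), and that of Gp9 at 48 h was 1.55 (limma adjusted p = 0.745).

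**Figure D3:**
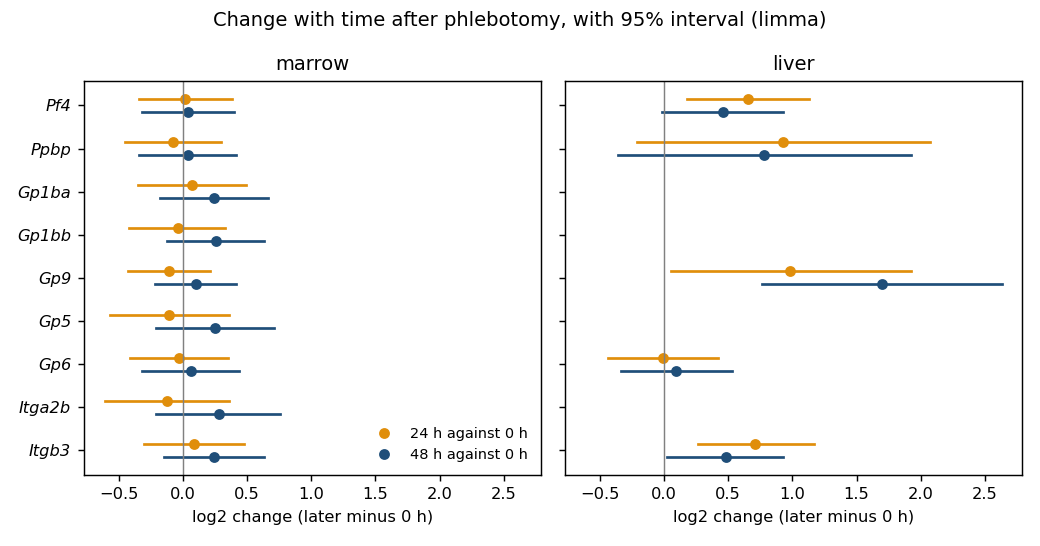
Change of each gene from 0 h to 24 h (orange) and to 48 h (blue), in log2 units, in marrow (left) and liver (right). Points are limma estimates from 4 arrays against 4 and lines are 95% intervals. The 4 genes without a liver row did not pass the filter for dim probes there. Marrow estimates lie within -0.12 and 0.28, and the liver intervals of Pf4, Ppbp, Gp9 and Itgb3 are wider and shifted to the right. Those of Ppbp include 0 at both times.

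Whether marrow and liver differed in their change was tested as an interaction on the 24 arrays. Of the 5 members that passed the filter in both tissues limma called 0 at 24 h, where it called 79 of 22768 genes or 0.347%, and 0 at 48 h, where it called 88 or 0.387%. The change in marrow minus that in liver was -0.63 for Pf4, -0.63 for Itgb3 and -1.10 for Gp9 at 24 h, with standard errors of 0.28, 0.29 and 0.48 (limma adjusted p = 0.398, 0.405 and 0.376). For Gp9 at 48 h it was -1.60 with a standard error of 0.48 (limma adjusted p = 0.176), the lowest adjusted p of the 5. Without the library labelled marrow 24 h replicate 2 the count at 24 h was again 0 of 5, and 37 genes were called in all. The labels do not say whether liver and marrow of 1 number came from the same mouse.

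Across the 12 liver arrays Pf4 and Itgb3 kept the closest relation of the 10 pairs. Pearson's r was 0.969 and Spearman's rho 0.986, each with a permutation p = 1e-05, the smallest that the permutations can give, and adjusted p = 9.2e-05 and 0.00023 over 46 pairs. Without the 2 arrays farthest from the median of Pf4 r was 0.953, and with the time means removed it was 0.943. Pf4 with Ppbp gave r = 0.735 and rho = 0.615 (permutation p = 0.00548 and 0.0374), and r fell to 0.353 without 2 arrays. Pf4 with Gp9 gave r = 0.729 and rho = 0.734, and r was 0.399 without 2 arrays. With the time means removed these 2 pairs gave r = 0.630 and 0.721. Their adjusted permutation p by Pearson's r was 0.00842 and 0.0213, and 6 of the 10 liver pairs passed 0.05. Leaving out the arrays farthest from the median narrows the range of Pf4, so the drop in r does not settle what these relations rest on. Gp6 with Pf4 gave r = 0.049 and rho = -0.028 (permutation p = 0.884 and 0.940). Of 19486 genes, the 5 most like Pf4 in liver were Itgb3, Cysltr1 at 0.952, Fxyd5 at 0.940, Tcaf1 at 0.939 and Aph1c at 0.938. Ppbp ranked 498 at 0.735, Gp9 529 at 0.729 and Gp6 7086 at 0.049. Cysltr1 is a receptor for cysteinyl leukotrienes carried by leukocytes.

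**Figure D4:**
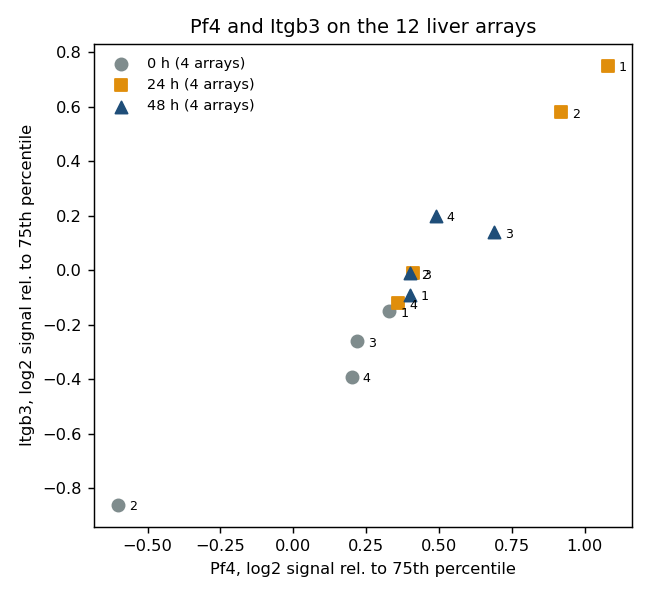
Itgb3 against Pf4 on the 12 liver arrays, both as log2 signal relative to the array's 75th percentile; shape and colour give the time and the digits the replicate. The points lie along a line with r = 0.969, from replicate 2 at 0 h at the lower left to replicates 1 and 2 at 24 h at the upper right.

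The summed signal of red cell markers in liver was higher after the bleed, with no gene of their list called. Summed over 13 red cell and erythroblast markers, the signal relative to the 75th percentile ran from 376 to 460 on the 0 h liver arrays. It ran from 541 to 581 at 24 h and from 530 to 855 at 48 h, so both later groups lay above 0 h. The sums here are of signal before the log2, so the brightest markers weigh most. In this list these were Hba-a1 and Hba-a2, at 7.47 and 7.42 at 0 h. Epb42, which erythroblasts express, was above background on no liver array at 0 h or 24 h. Hba-a1, the alpha globin whose mRNA reticulocytes keep, stood at 7.47 ± 0.11 (SD, n = 4), 7.94 ± 0.05 and 8.35 ± 0.32 at 0, 24 and 48 h (limma adjusted p = 0.333 and 0.265). Not all of the list went this way: Alas2, the erythroid heme synthesis enzyme, had changes of -0.34 and -0.33, and Klf1, an erythroid transcription factor, of -0.41 and 0.08. The summed signal of 10 neutrophil markers ran from 3.46 to 35.9, from 6.46 to 27.1 and from 3.27 to 13.3, and overlapped. The 35.9 came from replicate 4 at 0 h, and replicates 1, 2 and 3 gave 8.84, 3.46 and 4.15. Of 8 neutrophil genes tested in liver, 7 lay above 0 at 24 h, with a median change of 0.84. At 48 h 1 lay above 0, with a median of -0.27, and 0 were called at either time. The summed signal of 10 endothelial markers ran from 73.8 to 88.6, from 71.6 to 82.4 and from 80.5 to 88.2, and overlapped too. The 2 highest osteoclast list genes in liver were Acp5, at 6.75, 6.57 and 6.76, and Atp6v0d2, at -1.61, 0.09 and -1.56; both are also expressed by macrophages. The part of the blood left in the liver in the platelet readings was not tested.

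Other platelet genes in liver gave no call at any time, and neither did any of the 19638 genes tested. At an unadjusted limma p under 0.05, in either direction, 2 of 18 receptor and signalling genes passed at 24 h and 0 at 48 h. The counts at these times were 4 and 2 of 14 granule genes and 1 and 1 of 8 cytoskeleton genes. They were 4 and 0 of 9 transcription factors and 0 and 0 of 6 thrombopoietin axis genes. Over all genes the shares were 11.2% and 6.55%. Of 25 receptor and signalling genes 18 were tested, with medians of 0.08 at 24 h and -0.02 at 48 h, and Fcer1g stood at 2.71, 2.84 and 2.72 and Gng11, a G protein gamma chain, at 2.55, 2.75 and 2.57. Of 17 granule and secretion genes 14 were tested, with medians of 0.23 and 0.07. The brightest of these in liver, Clu at 8.69, 8.76 and 8.82, is made by hepatocytes as well. Sparc came next at 6.36, 6.62 and 6.31. Of 10 cytoskeleton and release genes 8 were tested, with medians of 0.17 and 0.06, and Tubb2a stood at 5.67, 5.66 and 5.15 and Myh9 at 5.01, 5.16 and 5.04. Of 10 transcription factors 9 were tested, with medians of 0.26 and -0.03. Zfpm1 stood at 3.69, 3.64 and 3.65 and Etv6 at 1.90, 1.89 and 1.87. In the thrombopoietin axis 6 genes were tested, with medians of -0.03 and -0.06. Asgr1 and Asgr2, the Ashwell-Morell receptor by which hepatocytes clear aged platelets, stood at 6.87, 6.88 and 6.77 and at 6.86, 6.79 and 6.74. Thpo, which encodes thrombopoietin, the hepatocyte hormone that raises platelet output, was named after its values were seen: its changes were -0.12 and -0.03 (limma adjusted p = 0.666 and 0.994).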

How the data were processed

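RNA of 24 samples was measured on single-colour Agilent arrays, per the labels. The deposited scanner files hold spot intensity made by the authors with Agilent Feature Extraction 10.10.1.1, per the submitters' processing notes. Background is already subtracted in the processed intensity, per the file headers, and arrays are not scaled to each other. A table of log2 values by the authors was also deposited and served as an alternative. Its array medians were 8.31 in marrow and 7.74 in liver, its Spearman correlation with the scanner values was 0.9973 to 0.9992 on each array, and how it was scaled is not given in the sources used here.

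The log2 of processed intensity, less that of the 75th percentile of its array, was used without control or outlier spots. A probe was kept in a tissue where some group had it well above background on each of its arrays, and the brightest kept probe represented its gene. Names came from the scanner files, updated through RefSeq. Each tissue's 12 arrays entered 1 fit with limma 3.58.1 (R 4.3.3, lmFit and eBayes, two-sided), with Benjamini-Hochberg adjustment over all genes and a threshold of 0.05. Tissues were compared on 24 arrays. The fit was tested on simulated data. Relations between members used 100000 permutations.

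The text names all 9 members, genes of the other lists called between times, the 2 genes of highest mean level of a list in a tissue for the platelet and regulator lists, and the 5 genes most like Pf4. In liver the red cell genes Hba-a1, Hba-a2, Epb42, Alas2 and Klf1, the osteoclast genes Acp5 and Atp6v0d2, and Thpo were named outside this rule. The members and lists were chosen with earlier results of these data known. Whether mice shared a litter or cage is not given, so p-values measure the spread between these samples. Replicate numbers were not used to pair samples.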

Additional observations from a re-analysis of the deposited data

Results flagged for a closer look

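The Pf4 reading on liver 0 h replicate 2 was -0.60, while the other 3 liver arrays at 0 h read from 0.20 to 0.33. The gap to the nearest of them was 0.861 of the group's whole range, above Dixon's 95% critical value for 4 samples. It was the 1 reading past that limit among 42 groups of 4 arrays, and chance passes about 5% of groups. Itgb3, Gp9 and Ppbp had their lowest reading on the same array, as had 10.2% of all genes. Without it the change of Pf4 was 0.44 at 24 h and 0.24 at 48 h, both above 0.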

How the results depend on the processing

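No alternative, among scaling, background correction, the authors' table, filters, probes per gene, slide and replicate blocks, variance models, array weights and each replicate left out in turn, led to a call of a member between times or, for the 5 members measured in both tissues, in the interaction. Leaving marrow 24 h replicate 2 out of the lists was chosen after seeing the data. With probes required above background on all arrays, 2 members were called higher in marrow than liver, since only 2 were then tested. The other alternatives called 9. That contrast was not run on the authors' table, whose 2 tissues have different medians. The counts of all genes called ranged from 66 to 347 in marrow at 24 h, from 89 to 660 at 48 h and from 0 to 2 between them, up to 2, 9 and 1 in liver, and from 22 to 179 and from 23 to 177 in the interactions. The replicate block, with 123 and 95 genes called in marrow at 24 h and 48 h and 0 members, changed no call of a member. Deviations of same-numbered arrays correlated from -0.251 to 0.172 in marrow, over 0.1 in 6 of 12 pairs. In liver they correlated from -0.270 to 0.153, over 0.1 in 3 of 12 pairs. For differently numbered arrays the correlation was over 0.1 in 9 of 36 marrow pairs and 4 of 36 liver pairs. The limma consensus correlation of same-numbered marrow and liver arrays of a time was 0.111. These values do not settle whether the numbers mark pairs, and they were not taken as pairs. Dim liver probes, 4 members among them, limit what could be measured.

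Changes close to 0 turned sign. In marrow at 24 h Pf4 (0.02) was -0.06 with quantile normalisation, -0.04 in the authors' table and -0.05 with the slide block, Gp1ba (0.07) -0.00155 with the slide block, Gp6 (-0.03) 0.01 with the array median, and Gp1bb and Gp5 0.02 with array weights. At 48 h Pf4 (0.04) was -0.06, -0.08, -0.02 and -0.00131 with quantile, the authors' table, the slide block and weights, Ppbp (0.04) -0.05, -0.01 and -0.01 with the first 3, and Gp6 (0.06) -0.00358 with the slide block. From 24 h to 48 h Pf4 (0.02) was -0.01 with normexp, -0.000328 with quantile, -0.01 with the median, and -0.04 in the authors' table and with weights. In liver Gp6 was 0.06 at 24 h with the slide block and -0.01 at 48 h with normexp. Its interaction was 0.01 with the median and 0.06 with the mean of probes at 24 h, and 0.03 with normexp at 48 h. The cause was not tested.

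Leaving out 1 replicate gave, in marrow at 24 h, -0.06 to 0.10 for Pf4, -0.13 to 0.000933 for Ppbp, -0.04 to 0.18 for Gp1ba, -0.16 to 0.06 for Gp1bb, -0.23 to 0.00012 for Gp5, -0.08 to 0.03 for Gp6, -0.30 to 0.04 for Itga2b and -0.00167 to 0.17 for Itgb3. At 48 h it gave -0.11 to 0.16 for Pf4, -0.14 to 0.14 for Ppbp, -0.03 to 0.20 for Gp9 and -0.13 to 0.19 for Gp6. From 24 h to 48 h it gave -0.14 to 0.14 for Pf4, -0.07 to 0.22 for Ppbp, -0.10 to 0.22 for Gp6 and -0.01 to 0.25 for Itgb3. In liver it gave -0.19 to 0.14 for Gp6 at 24 h, and from 24 h to 48 h -0.40 to 0.10 for Ppbp and -0.05 to 0.28 for Gp6. The Gp6 interaction ran from -0.17 to 0.16 at 24 h and from -0.23 to 0.10 at 48 h.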
